A study of Chlamydomonas reinhardtii with 42 samples.

Results

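THB1 (Cre14.g615400) and HCP3 (Cre02.g129500) are single genes of Chlamydomonas reinhardtii, a unicellular green alga. They are named in the authors' deposited rapamycin sheets as a truncated hemoglobin and a hybrid-cluster protein. Both were chosen by those names from sheets that list genes changed by rapamycin, so the rapamycin values of both genes are given below as a description. Their loci were then matched to the table of normalized counts, where they are 2 of 17114 genes. Both were among the 14422 genes with enough reads to be tested.

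The study measured transcripts by RNA sequencing in 2 settings. In one, the strains DHC16 and A31 received cobalamin and thiamine, which per the labels deplete ClpP1, a catalytic subunit of the Clp protease in the chloroplast. In the other, A31 received rapamycin, which inhibits the TOR kinase, a central regulator of growth. It is not stated in the labels in which strain ClpP1 is depleted, which light a library was grown in, or whether libraries of a group are separate cultures, so p-values cover a spread between libraries that may be technical. The groups were DHC16 and A31 at 0, 12 and 48 h after the vitamins, each in acetate medium, and there was no culture at 12 or 48 h without vitamins. Each group had 3 libraries analysed except A31 at 48 h, where numbers 19 and 22 were analysed and number 25 of the labels was not analysed here. The characteristics name the strain DHC16 and the growth protocol spells it DCH16.

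Truncated hemoglobins are small heme proteins that bind oxygen and nitric oxide. In Chlamydomonas THB1 is known for converting nitric oxide to nitrate and for its link to nitrate assimilation. Hybrid-cluster proteins carry an iron-sulfur-oxygen cluster, are known in bacteria for reducing nitric oxide, and in Chlamydomonas are associated with life without oxygen.

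The libraries held 7458423 to 13699705 reads, and 1 read was worth 0.703 to 2.04 normalized counts. The A31 libraries at 48 h stood apart from each other. Over the genes tested, the mean rank correlation of library 19 was 0.943 with the A31 libraries of 0 h and 0.813 with those of 12 h, while that of library 22 was 0.775 with 0 h and 0.919 with 12 h. METE encodes a methionine synthase that needs no cobalamin, and its transcript is known to fall with this vitamin. It lay in library 19 within the 579 to 1050 normalized counts of A31 at 0 h. In library 22 it stood at 353, against 140 to 165 in A31 at 12 h and 289 to 340 in DHC16 at 48 h. The calls of THB1 and HCP3 at 48 h in A31 are given with and without them. Under per-million scaling the median log2 change of all genes lay between -0.71 and 1.28 over the comparisons, against -0.09 to 0.06 as deposited, and directions below are those of the deposited scaling.

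THB1 was near the lower limit of detection before the vitamins in both strains and was higher in every library afterwards. In DHC16 it had 2.04, 9.65 and 6.53 normalized counts at 0 h, 70.7, 79.6 and 90.4 at 12 h, and 97.2, 64.0 and 54.9 at 48 h. Every library of 12 and 48 h lay above every library of 0 h. The 3 values at 0 h rest on 1, 5 and 5 reads, and the first is under the floor of 3 reads per library, so the size of the increase is less certain than its direction. In A31 the gene had 10.1, 13.7 and 9.84 normalized counts at 0 h, 274, 135 and 306 at 12 h, and 34.5 and 404 at 48 h. Here too the later libraries lay above those of 0 h, but the pair at 48 h spanned more than the 3 libraries of 12 h.

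At 12 h against 0 h THB1 rose in DHC16 by 3.69 ± 0.63 on the log2(normalized count + 1) scale (SE, limma, adjusted p = 0.000115). In that comparison 30.1% of all genes rose and 26.4% fell, 56.5% together, at an adjusted p under 0.05, the threshold used throughout. In A31 it rose by 4.22 ± 0.63 (SE, limma, adjusted p = 3.3e-05), where 31.5% of all genes rose and 28.4% fell, 59.9% together. Of the 14422 genes, 551 had a higher log2 change than THB1 in DHC16 and 451 in A31. The interval of the difference between the strains' 12 h changes ran from -2.40 to 1.35 around -0.53 (95%, limma, adjusted p = 0.86).

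At 48 h against 0 h THB1 rose in DHC16 by 3.51 ± 0.63 (SE, limma, adjusted p = 0.000199), where 29.7% of all genes rose and 25.3% fell, 55% together. Without the DHC16 library of 1 read it rose by 2.99 at 48 h and by 3.17 at 12 h, both still past the threshold with limma (adjusted p = 0.00167 and 0.00102). In A31 it rose by 3.31 ± 0.70 (SE, limma, adjusted p = 0.0032), where 14.4% of all genes rose and 12.6% fell, 27% together. That result turned on library 22. Without it the change was 1.55 (limma, adjusted p = 0.107), and without library 19 it was 5.07. Between 48 h and 12 h the DHC16 ranges overlapped, with a difference of -0.19 and a 95% interval of -1.52 to 1.14 (limma, adjusted p = 0.83), in a comparison with 47.8% of genes changed. In A31 that difference was -0.91 ± 0.70 (SE, limma, adjusted p = 0.35), where 26.9% of genes changed. It was -2.67 without library 22 (limma, adjusted p = 0.00086) and 0.85 without library 19.

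**Figure D1:**
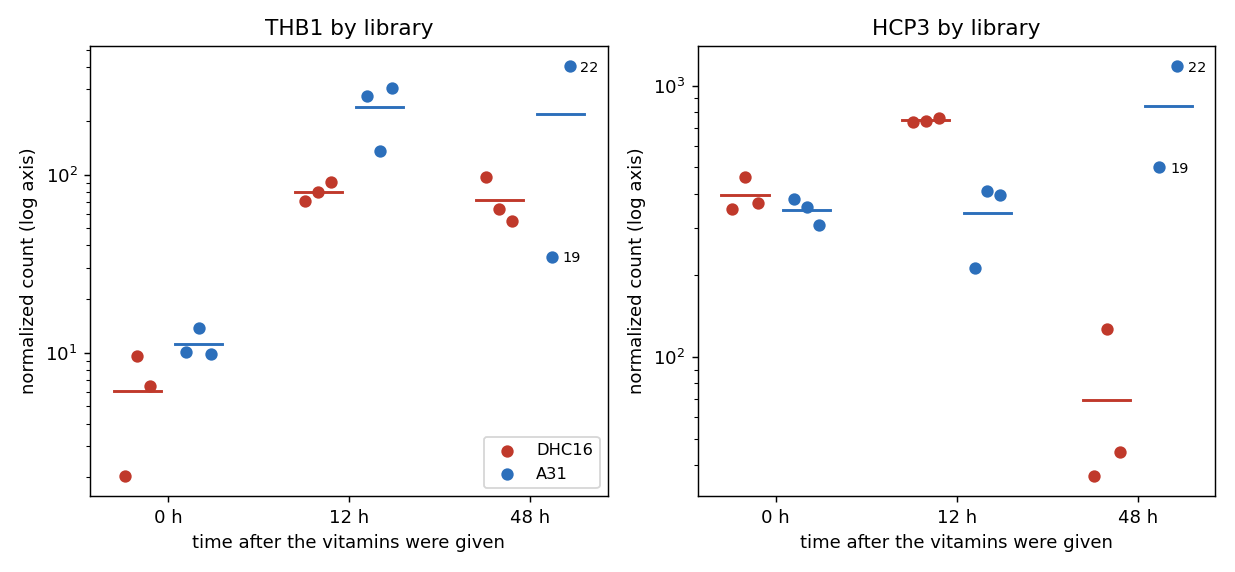
Normalized counts of THB1 (left) and HCP3 (right) on log axes against the time after the vitamins. Points are single libraries, red for DHC16 and blue for A31, lines are group means, and numbers mark A31 libraries 19 and 22. THB1 was under 14 in all libraries of 0 h and over 34 in all later ones. HCP3 in DHC16 stood near 747 at 12 h and between 36.6 and 126 at 48 h.

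HCP3 was well detected at 0 h, with 172 to 283 reads per DHC16 library and 342 to 470 per A31 library, and its course differed between the strains at 48 h. In DHC16 it had 351, 461 and 370 normalized counts at 0 h, 736, 743 and 761 at 12 h, and 36.6, 126 and 44.9 at 48 h. All libraries of 12 h were above those of 0 h, and all libraries of 48 h were below both. In A31 it had 383, 359 and 307 at 0 h, 213, 410 and 395 at 12 h, and 499 and 1176 at 48 h. There the libraries of 12 h overlapped those of 0 h, and both libraries of 48 h were the highest of the strain.

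At 12 h against 0 h HCP3 rose in DHC16 by 0.93 ± 0.38 on the log2 scale (SE, limma, adjusted p = 0.044), with 3335 genes changing more in that direction. Leaving out single libraries took this call away in 10 of 17 cases, with adjusted p up to 0.112 and changes of 0.85 to 1.05. In A31 the change was -0.10, with a 95% interval of -0.89 to 0.70 (limma, adjusted p = 0.84). The difference between these changes was 1.03 ± 0.53 (SE, limma, adjusted p = 0.44). In that test 0.25% of genes were called.

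At 48 h against 0 h HCP3 fell in DHC16, with a log2 change of -2.70 ± 0.38 (SE, limma, adjusted p = 1.8e-05), where 25.3% of all genes fell. A more negative change was seen in 219 of the 14422 genes. With single libraries left out the change of HCP3 lay between -3.24 and -2.36. Over the 9 other alternatives it lay between -2.71 and -1.67, so its size was less stable than its direction. Against 12 h the change was -3.63 ± 0.38 (SE, limma, adjusted p = 8.0e-07), where 24.6% of all genes fell. In A31 the change at 48 h against 0 h was 1.14 ± 0.42 (SE, limma, adjusted p = 0.054), just short of the threshold, though the ranges did not overlap. It was 1.76 without library 19 (limma, adjusted p = 0.0038) and 0.52 without library 22. Against 12 h HCP3 rose in A31 by 1.23 ± 0.42 (SE, limma, adjusted p = 0.039), where 12.2% of all genes rose, and by 0.62 without library 22 (limma, adjusted p = 0.291).

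The 48 h change of HCP3 in DHC16 minus that in A31 was -3.84 ± 0.57 on the log2 scale (SE, limma, adjusted p = 0.00016). In that test 17.9% of all genes were called, 8.66% of all genes with a lower change in DHC16, and 71 genes had a more negative difference than HCP3. Without A31 library 19 or 22, and without any other single library, the difference stayed between -4.46 and -3.22 and past the threshold with limma. Over the 10 other alternatives it lay between -3.85 and -2.58, so its size was less stable than its direction. For THB1 the same difference was 0.20, with a 95% interval of -1.80 to 2.19 (limma, adjusted p = 0.92), and it changed sign with the A31 library left out: -1.56 without library 19 and 1.95 without library 22 (limma, adjusted p = 0.094 and 0.037).

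Between the strains at 0 h, HCP3 averaged 394 ± 59.0 normalized counts in DHC16 and 349 ± 38.9 in A31 (SD, n = 3 each), a log2 difference of 0.17 with a 95% interval of -0.63 to 0.96 (limma, adjusted p = 0.82). THB1 averaged 6.07 ± 3.82 in DHC16 and 11.2 ± 2.18 in A31 at 0 h (SD, n = 3 each). Its ranges did not overlap, yet the difference of -0.95 ± 0.63 did not pass the threshold (SE, limma, adjusted p = 0.38), in a comparison where 9.38% of genes did.

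At 12 h HCP3 averaged 747 ± 12.6 normalized counts in DHC16 and 339 ± 110 in A31, while THB1 averaged 80.2 ± 9.86 in DHC16 and 238 ± 90.9 in A31 (SD, n = 3 each). The strains' ranges did not overlap for either gene. The log2 differences were 1.20 ± 0.38 for HCP3 (SE, limma, adjusted p = 0.096) and -1.48 ± 0.63 for THB1 (SE, limma, adjusted p = 0.216). Neither passed the threshold in a comparison with 3.45% of genes called. Both passed it when A31 library 19 or 22 was left out of the shared estimate of spread (limma, adjusted p = 0.0201 to 0.0243), with the same differences.

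At 48 h HCP3 averaged 69.3 ± 49.7 in DHC16 (SD, n = 3) and 838 ± 479 in A31 (SD, n = 2), a log2 difference of -3.67 ± 0.42 (SE, limma, adjusted p = 5.2e-06). In this comparison 15.5% of all genes were lower in DHC16, and 66 genes had a more negative difference. The difference stayed between -4.29 and -3.05 with any library left out. THB1 averaged 72.0 ± 22.3 in DHC16 (SD, n = 3) and 219 ± 261 in A31 (SD, n = 2) at 48 h, with overlapping ranges and a difference of -0.76 ± 0.70 (SE, limma, adjusted p = 0.44). That difference was -2.51 without A31 library 19 (limma, adjusted p = 0.00143) and 1.00 without library 22.

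Ordered by group mean, THB1 ran from A31 at 12 h, A31 at 48 h, DHC16 at 12 h and DHC16 at 48 h down to A31 and DHC16 at 0 h. Within each strain limma separated both later groups from 0 h, and none of the tests run between the 4 later groups passed the threshold. HCP3 ran from A31 at 48 h and DHC16 at 12 h through DHC16, A31 at 0 h and A31 at 12 h down to DHC16 at 48 h. DHC16 at 48 h was below each of the other 2 DHC16 groups and A31 at 48 h with limma.

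**Figure D2:**
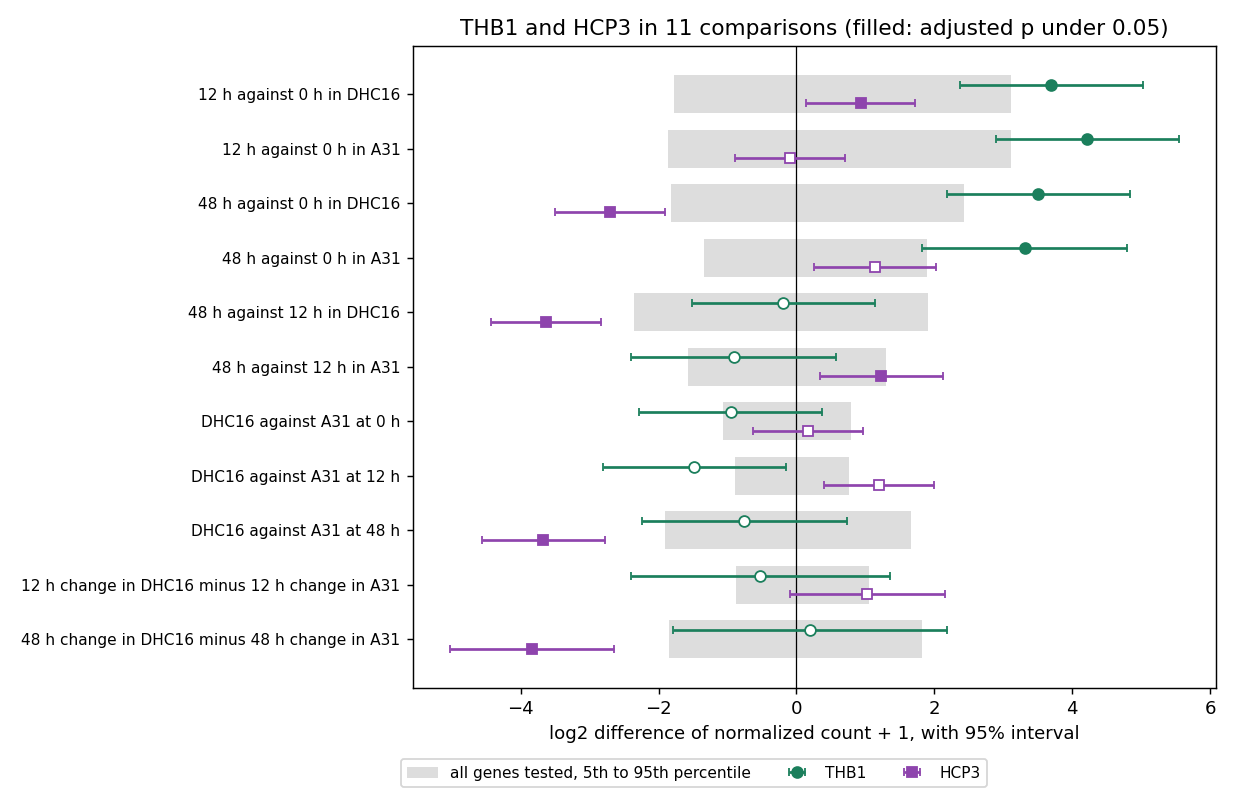
Log2 differences of THB1 (circles) and HCP3 (squares) with 95% intervals in each comparison, filled where the adjusted p was under 0.05 with limma. Grey bars span the 5th to 95th percentile of all 14422 genes tested. THB1 lies right of the bar in the comparisons of 12 h or 48 h with 0 h, and HCP3 lies left of it in those that involve DHC16 at 48 h.

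Under rapamycin, the authors' deposited tables give 1 level per gene and time in A31 on a scale that is not stated, and they list 1939 genes at 2 h and 1702 at 8 h. All of these had an absolute log2 change of at least 1.00, so being called there is what placed THB1 and HCP3 among the genes described. The 0 h level is shared by both times. In the authors' deposited tables THB1 stood at 1.50 at 0 h, 76.2 at 2 h and 73.8 at 8 h. Its moderated log2 change in these deposited tables was 4.49 at 2 h (adjusted p = 5.3e-47) and 4.21 at 8 h (adjusted p = 2.0e-40). By that change THB1 ranked 5 from the top at 2 h and 12 from the top at 8 h in the authors' deposited tables.

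HCP3 was listed in the authors' deposited table of 8 h only, with a level of 0.123 at 8 h against 2.49 at 0 h. Its moderated log2 change in that deposited table was -1.31 (adjusted p = 9.4e-07), rank 577 from the most negative, while the log2 ratio of the levels was -4.34. Both levels were low beside the median 0 h level of 5.64 of the genes listed at 8 h, so the size of this fall is uncertain. At 8 h of rapamycin in A31 the pair thus went opposite ways in the authors' deposited table, which is also where the pair was chosen. They also went opposite ways in DHC16 at 48 h of vitamins in the count table. In A31 at 48 h of vitamins they did not, with log2 changes of 3.31 for THB1 and 1.14 for HCP3, the latter not called. At 12 h of vitamins both rose in DHC16, though the call of HCP3 was lost in 10 of 17 cases with single libraries left out. In A31 at 12 h THB1 rose by 4.22 and HCP3 changed by -0.10, which was not called.

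**Figure D3:**
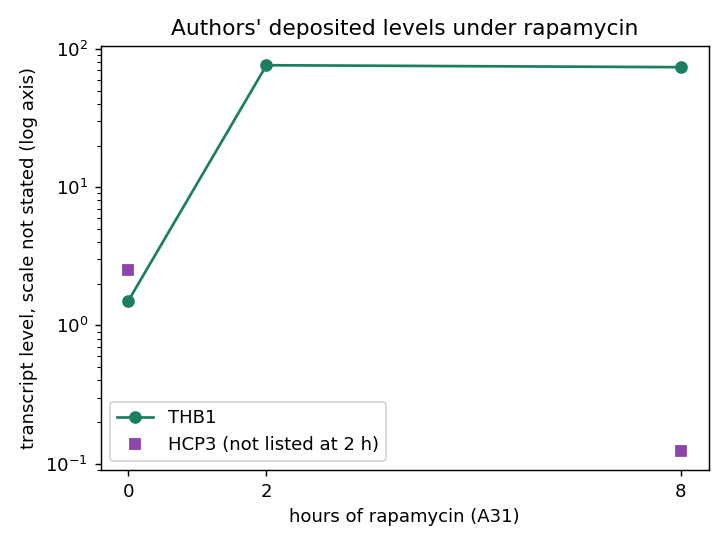
Levels of THB1 (circles) and HCP3 (squares) in A31 at 0, 2 and 8 h of rapamycin from the authors' deposited tables, on a log axis with the scale not stated and no error given. THB1 stood at 1.50, 76.2 and 73.8, and HCP3 at 2.49 at 0 h and 0.123 at 8 h.

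THB1 and HCP3 did not follow each other over the 17 libraries of the vitamins, with Pearson r = 0.02 on the log2 scale. The correlations given here describe libraries that share strain, time and scaling, and they carry no test. Gene names come from the rapamycin sheets alone, so a named gene is one that the authors listed there. The named genes most like THB1 were CTL3, a C-type lectin (r = 0.98), PDC3, a pyruvate dehydrogenase subunit per the sheets (0.97), SNE5, an epimerase or dehydratase (0.96), AST4, an aspartate aminotransferase (0.95), and GOX4, a glyoxal or galactose oxidase (0.95). Among all genes Cre01.g023300 was the nearest (0.98) and CTL3 came next. CTL3 had 2.04, 5.79 and 5.22 normalized counts in DHC16 at 0 h, 98.1, 87.5 and 105 at 12 h, and 59.7, 95.3 and 51.9 at 48 h, and in A31 at 48 h it had 45.5 and 239. These values were of a similar order to those of THB1 in the same libraries. CTL3 too was higher in A31 library 22 than in library 19, though by less than THB1 (34.5 in library 19 and 404 in library 22).

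The named genes most like HCP3 were PSBX and PSBP1, which encode photosystem II subunits (0.90 and 0.90), ELI2-1, an early light-inducible protein (0.87), HPR1, a hydroxypyruvate reductase of photorespiration (0.87), and MAS1, the malate synthase of the glyoxylate cycle (0.86). Cre12.g548400 and Cre03.g199800 were nearest among all genes (both 0.94). Each of these 5 named genes fell in DHC16 at 48 h against 0 h with limma, by between 0.97 for ELI2-1 and 3.40 for PSBX on the log2 scale. PSBX changed by -3.40 ± 0.29 (SE, limma, adjusted p = 9.0e-08) and MAS1 by -1.31 ± 0.15 (SE, limma, adjusted p = 3.1e-06). The choice by likeness to HCP3 makes such a fall part of the choice.

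In the authors' deposited tables, PSBX stood at 734 at 8 h against 335 at 0 h and PSBP1 at 2119 at 8 h against 590 at 0 h, both higher, where HCP3 was lower. HPR1 was lower at 2 h in the deposited table, at 8.97 against 23.0 at 0 h, and MAS1 stood at 24.8 at 2 h against 190 at 0 h. ELI2-1 was higher in that deposited table, at 139 at 2 h against 49.3 at 0 h, and HCP3 has no value at 2 h to set beside these 3 genes. The 5 named genes most like THB1 over the libraries were higher wherever the deposited tables list them, such as CTL3 at 9.45 at 2 h and 9.72 at 8 h against 0.586 at 0 h, and GOX4 at 33.8 at 2 h and 29.2 at 8 h against 4.49 at 0 h. ARS6 and FDX5, named as like THB1 by group means alone, were lower at 2 h in the deposited table, ARS6 at 0.916 against 3.82 at 0 h and FDX5 listed at 0 against 3.64 at 0 h.

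**Figure D4:**
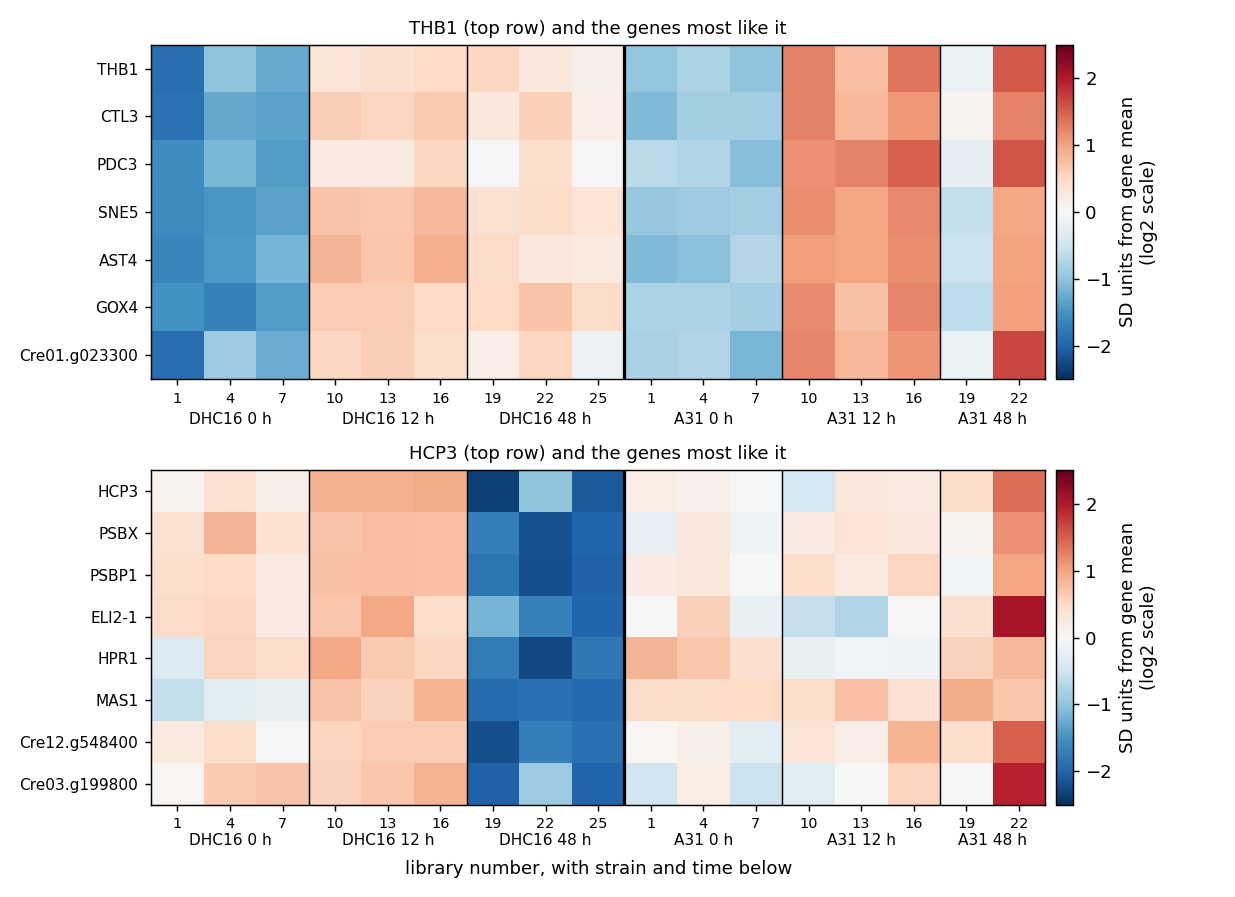
Log2 values of THB1 (upper panel) and HCP3 (lower panel) with the genes most like each, as SD units from the gene's own mean, by library; red is above and blue below the mean. The rows were chosen for their likeness. The THB1 panel is blue in all libraries of 0 h, and the HCP3 panel is darkest blue in DHC16 at 48 h.

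The genes of related pathways were taken from lists of symbols, of which few are named in the rapamycin sheets. Each list gene had thus already passed the authors' rapamycin thresholds. Of the 14422 genes tested, 766 were named in this way. The share of all genes given above is therefore not a like background for the counts, which are a description. Under per-million scaling most genes called at 12 h and 48 h against 0 h in DHC16 were higher, as given below, and the lists share that shift. Of the genes of hybrid-cluster proteins, hydrogenase and fermentation, 5 were named and tested. Among them PDC3 was placed by its symbol, while the sheets describe it as a pyruvate dehydrogenase subunit. Its rises may therefore not concern fermentation, and they are part of the counts for both strains at both times. At 12 h 4 rose and 1 fell in DHC16, and 3 rose and 1 fell in A31, with median log2 changes of 1.27 and 1.35 against 0.04 and 0.02 for all genes. At 48 h against 0 h 1 rose, which was PDC3, and 2 fell in DHC16, with a median of 0.30 against 0.06 for all genes. PDC3 rose in DHC16, to 592 ± 158 at 48 h, against 136 ± 27.4 normalized counts at 0 h (SD, n = 3 each, limma, adjusted p = 0.000463), and HYDEF, a maturation factor of the iron hydrogenase, fell beside HCP3, with a log2 change of -1.12 (limma, adjusted p = 0.00035). Under per-million scaling 2 rose and 1 fell, and without A31 library 19 or 22 in the shared estimate of spread 2 rose and 2 fell. PAT2, a phosphate acetyltransferase, changed by 0.30 (limma, adjusted p = 0.41).

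FDX5, a ferredoxin induced without oxygen, was at 0 in all libraries of 0 h. It averaged 39.0 ± 15.8 normalized counts in DHC16 and 226 ± 134 in A31 at 12 h (SD, n = 3 each). Against a floor of 3 reads in each library of 0 h these are at least 6.11-fold and at least 55.4-fold higher. With FDX5 at these bounds the list's medians at 12 h were still 1.27 in DHC16 and 1.35 in A31, and in DHC16 at 48 h still 0.30. In A31 at 48 h FDX5 was at 0 in library 19 and at 4039 in library 22. In that strain 2 of the 5 genes rose at 48 h, 5 without library 19 and 0 without library 22 with limma, where 1 had an unadjusted p under 0.05.

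A separate list, of ferredoxins and iron-sulfur assembly, held FDX5, NFU1 and FEA1. NFU1, a scaffold of iron-sulfur assembly, rose in DHC16 at 48 h by 2.48 (limma, adjusted p = 2.7e-06), and so did FEA1, an iron-assimilating protein (limma, adjusted p = 0.031). FEA1 had 8.92 to 18.0 normalized counts at 48 h in DHC16, against 0 to 2.61 at 0 h, a level that rests on few reads, so no fold is given. With FDX5, 2 of these 3 genes rose in DHC16 and in A31 at both times, but not always the same 2. In DHC16 at 48 h FDX5 was not called (limma, adjusted p = 0.108). Under quantile scaling 1 rose in DHC16 at either time, and under per-million scaling 3 rose there at 12 h. In A31 at 48 h 0 rose without library 22 with limma, where 1 had an unadjusted p under 0.05.

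Of the nitrogen genes, 4 of 5 named were tested, and AMT1D, an ammonium transporter, had too few reads. GLN1, a glutamine synthetase, rose in DHC16 at 12 h by 2.15 (limma, adjusted p = 7.3e-06) and at 48 h by 1.96 (limma, adjusted p = 1.7e-05). GDH2, a glutamate dehydrogenase, fell in DHC16 at 12 h, with a log2 change of -2.37 (limma, adjusted p = 7.9e-07), and at 48 h, with -1.26 (limma, adjusted p = 0.00035). GLN3, which reads of a close copy could affect, fell with -1.22 at 48 h (limma, adjusted p = 0.029), and GSF1, a ferredoxin-dependent glutamate synthase, changed by -0.24 (limma, adjusted p = 0.54). The list's median at 48 h in DHC16 was -0.73, and under per-million scaling it turned to 0.29, with 2 genes up and 0 down in place of 1 up and 2 down. Most of all genes called in that comparison were also higher under that scaling, so this turn is not particular to the list. In A31 1 rose and 1 fell at 12 h, and GLN1 alone changed at 48 h, a rise that was not called without library 22. GLB1, matched as a hemoglobin symbol, is in the sheets the PII nitrogen regulatory protein, and it rose in DHC16 at 12 h by 1.77 (limma, adjusted p = 0.00028).

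The nitric oxide list held only guanylate cyclases, enzymes that make cyclic GMP. Of these 5 genes, 4 fell in DHC16 at 48 h against 0 h, with a median of -2.71. CYG54 averaged 43.1 ± 6.29 at 48 h in DHC16, against 619 ± 125 normalized counts at 0 h (SD, n = 3 each). Its log2 change was -3.80 (limma, adjusted p = 4.8e-06). CYG36 changed by -3.18, CYG5 by -2.71 and CYG55 by -1.88 (limma, adjusted p = 1.1e-05, 1.8e-05 and 8.9e-08). At 12 h 1 rose and 2 fell in DHC16, and 3 rose and 2 fell in A31. In DHC16 at 12 h it was 3 and 1 under per-million scaling, and 2 and 2 without A31 library 19 or 22 in the shared estimate of spread. In A31 at 48 h 0 rose and 2 fell, and 0 fell without library 22 with limma, where 1 had an unadjusted p under 0.05.

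Of 12 genes of oxidant removal, 10 rose and 0 fell in DHC16 at 48 h against 0 h, with a median of 1.71. PRX6, a peroxiredoxin, averaged 129 ± 19.7 at 48 h in DHC16, against 1.51 ± 1.35 normalized counts at 0 h (SD, n = 3 each), the level at 0 h resting on few reads. APX1, an ascorbate peroxidase, rose by 3.57 (limma, adjusted p = 6.2e-07), NTR3, a thioredoxin reductase, by 3.19 (limma, adjusted p = 5.1e-06) and FSD1, an iron superoxide dismutase, by 2.95 (limma, adjusted p = 1.8e-06). At 12 h 9 rose and 1 fell in each strain, and in A31 at 48 h 5 rose and 0 fell, 9 without library 19 and 1 without library 22. The strain difference of the 48 h change passed the threshold for 4 of the 12, all with the greater change in DHC16, against 9.26% of all genes. It passed for 3 without A31 library 19, for 7 without library 22, for 7 under quantile scaling and for 11 under per-million scaling, where 9151 of the 14422 genes were called in that direction.

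One further gene, Cre16.g663000, carries a truncated hemoglobin domain in the sheets' description and was picked after its values were seen. It had 396, 345 and 376 normalized counts at 12 h in DHC16, against 764, 986 and 843 at 0 h. Its log2 change was -1.21 ± 0.27 in DHC16 and -1.29 ± 0.27 in A31 at 12 h (SE, limma, adjusted p = 0.00104 and 0.000574), opposite in sign to that of THB1. The authors' deposited table of 8 h gives it a level of 0.197 at 8 h of rapamycin against 1.84 at 0 h, again lower where THB1 was higher.

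In the gene table of the assembly Chlamydomonas_reinhardtii_v5.5, which was used for gene order alone, the genes on one side of THB1 had no reads in any library or at most 1.56 normalized counts. On the other side Cre14.g615450 averaged 31.8 normalized counts at 48 h in DHC16 against 12.1 at 0 h, a log2 change of 1.51 (limma, adjusted p = 0.0177). It averaged 40.3 at 12 h in DHC16, and 44.7 at 12 h against 14.8 at 0 h in A31. The gene after it averaged 165 at 0 h, 102 at 12 h and 299 at 48 h in DHC16. In A31 it averaged 133 at 0 h, 100.4 at 12 h and 96.6 at 48 h. No entry of that gene table matched the locus of HCP3.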

How the data were processed

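The values for the vitamins are normalized counts per gene and library as the authors deposited them, a signal equal to whole reads over 1 factor for each library. All values (100%) were whole multiples of 1 read within a tolerance of 0.01. For rapamycin they deposited mean levels, a signal with no stated scale, with p-values, both raw and adjusted, and log2 fold changes that were read as moderated, per the file headers. The fold ratio columns beside them were not used. The submitters' processing notes name edgeR 3.0.8, HTSeq 0.5.3p9, TopHat 1.3.1 and CASAVA 1.8.2, with no roles. Build, strand setting and scaling method were not given in the sources used here, and reads shared by paralogs could be split or lost.

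The series has 42 records, 18 labelled for the vitamins and 24 labelled for rapamycin, and 17 libraries were analysed. Most records under the rapamycin label repeat the strains, times and library numbers of the vitamin records. The rest are A31 at the times after rapamycin. The A31 records of 0 h under both labels carry the same numbers, and whether they are the same libraries was not tested. Genes averaging at least 1 CPM from the recovered reads (14422) were tested with limma 3.58.1 (trend) in R 4.3.3, on log2 of the normalized count plus 1, with a mean for each of the 6 groups, a shared spread and Benjamini-Hochberg adjustment over all genes tested (threshold 0.05). The test was checked on simulated data. Alternatives were other scalings, pseudocounts and filters, edgeR 4.0.16 and DESeq2 1.42.0 on the recovered reads, only the groups compared, single libraries left out and a replicate block. Genes, lists and tests were chosen with earlier results of these data known. Genes are named by list (up to 4 with the largest absolute change, 48 h against 0 h in DHC16), by likeness (the 5 named genes and 2 genes of any kind with the highest r) and by position (2 genes on each side). Intervals and floors cover counting or library spread only.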

Additional observations from a re-analysis of the deposited data

Results flagged for a closer look

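The 48 h change of HCP3 differed between the strains. In DHC16 it fell to 69.3 normalized counts at 48 h, against 394 at 0 h, while in A31 it averaged 838 at 48 h and 349 at 0 h. The difference of the changes was -3.84 on the log2 scale in the test of the difference itself (limma, adjusted p = 0.00016). A31 libraries 19 and 22 differ from each other, and their part in the size of the difference was measured by leaving each out, as given above.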

How the results depend on the processing

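The rise of THB1 at 12 h in both strains and at 48 h in DHC16, the fall of HCP3 in DHC16 at 48 h and its strain differences at 48 h kept direction and call under all alternatives run. Fitting only the groups compared, THB1 at 48 h against 0 h in A31 (3.31, adjusted p = 0.116) and HCP3 at 48 h against 12 h in A31 (1.23, adjusted p = 0.164) lost the call, while at 12 h between strains THB1 (-1.48) and HCP3 (1.20) gained it. Under per-million scaling HCP3 at 48 h against 12 h in A31 was 0.68 and not called, and 3 values without a call changed sign: HCP3 at 12 h in A31 (0.24), THB1 at 48 h against 12 h in DHC16 (0.10) and HCP3 between strains at 0 h (-0.55). HCP3 at 48 h in A31 was called with a pseudocount of 8 (1.12), edgeR (1.26) and DESeq2 (1.26), HCP3 between strains at 12 h with DESeq2 (1.13), and THB1 between strains at 48 h with edgeR (-1.57) and DESeq2 (-1.60). The strain difference of the 48 h change of THB1 turned negative with quantile scaling (-0.34), a pseudocount of 8 (-0.28), edgeR (-0.69) and DESeq2 (-0.73). The cause was not tested.

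Leaving out single libraries gave ranges of -0.26 to 0.21 for HCP3 at 12 h in A31, where the sign turned without A31 library 10 of 12 h, and 0.85 to 1.05 for HCP3 at 12 h in DHC16. At 48 h against 0 h in A31 the ranges were 1.55 to 5.07 for THB1 and 0.52 to 1.76 for HCP3. At 48 h against 12 h in A31 they were -2.67 to 0.85 for THB1 and 0.62 to 1.85 for HCP3. Between strains they were -1.85 to -1.26 for THB1 and 0.89 to 1.36 for HCP3 at 12 h, and -2.51 to 1.00 for THB1 at 48 h. For the strain difference of the 48 h change of THB1 the range was -1.56 to 1.95, with -0.32 without DHC16 library 1 of 0 h and -0.04 without DHC16 library 19 of 48 h.

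Same-numbered libraries of the strains deviated together in 4 of 8 pairs. These were the pairs of 0 h (r = 0.15 to 0.22) and number 10 of 12 h (r = 0.18). In these pairs alone the A31 library had its highest r with the DHC16 library of the same number. The other pairs of 12 h and those of 48 h had r of -0.08 to 0.06. The numbers were therefore not taken as pairs in the main test, though those of 0 h went together. With the replicate block HCP3 between strains at 12 h was called (1.20, adjusted p = 0.0156), and no other call for these genes changed. Counts of all genes called moved between strains at 0 h (1353, and 7445 under per-million scaling), at 12 h (498, and 2488 with only the groups compared) and in the 12 h strain difference (36, with 335 under per-million scaling and 502 with only the groups compared). In A31 at 48 h against 12 h limma called 3884 genes, 6519 under per-million scaling and 6199 without library 22, edgeR 4206 and DESeq2 4569, but with only the groups compared limma called 0, where 3559 had an unadjusted p under 0.05. At 48 h against 0 h in A31 3892 genes were called, 297 with only the groups compared, and 953 to 7205 with single libraries left out. With a filter at 10 CPM, 5185 genes were called at 12 h in DHC16 in place of 8153, and THB1 was still tested. On the recovered reads edgeR called 7596 genes at 48 h in DHC16, where limma called 7933, and 31 to 8898 over all comparisons. Of the genes called, the share higher was 45.5% to 61.1% as deposited. Under per-million scaling it was 86.2% at 12 h and 92.4% at 48 h against 0 h in DHC16, 69.6% and 29.0% in A31, and 1.64% between strains at 0 h, 13.1% at 12 h and 84.0% at 48 h. Depth limits THB1 at 0 h, where DHC16 libraries held 1 to 5 reads and A31 libraries 9 to 18.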

Other observations

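The level of 0 h differs between the tables. FDX5 is at 0 in all 3 A31 libraries of 0 h in the count table, but the authors' deposited table gives it 3.64 at 0 h and lists it at 0 at 2 h of rapamycin. Over 1926 genes of the 2 h table, the deposited level at 0 h and the mean normalized count of A31 at 0 h had r = 0.45 on the log2 scale, across genes, which are not independent. ARS6, an arylsulfatase among the genes most like THB1 by group means, rose at 12 h of vitamins in DHC16 by 4.03 and in A31 by 3.94 (limma, adjusted p = 3.3e-05 and 4.0e-05). Its deposited level was 0.916 at 2 h of rapamycin against 3.82 at 0 h, lower where THB1 was higher. By group means in place of libraries, 2 of the 5 named genes most like THB1 and 3 of the 5 most like HCP3 were shared.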
